A study of Drosophila melanogaster with 8 samples.

Results

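γH2Av regions on the interior of arm 2L, the left arm of the second chromosome, were mapped by ChIP-seq in Drosophila S2 cells, a cultured cell line. Peaks of the 4 ChIP libraries that overlapped by at least 1 bp were merged, and a merged region was kept when it started after 2 Mb and before 21 Mb of 2L in the dm3 build. This gave 629 regions of 4731 in the whole series. The outermost kept regions were 2L:2009414-2010832 and 2L:20925329-20929059, both called in all 4 libraries. The nearest regions outside the limits were 2L:1985939-1990059 and 2L:21046391-21049606, called in 3 libraries and in 1.

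The 2 conditions were dH1 RNAi, with the linker histone dH1 as target, and WT. In dH1 RNAi, 100 μg of double-stranded RNA went into the culture on days 1, 4 and 7 of an incubation of 8 days. The paper calls the WT cells untreated, and no sample of the series received a control double-stranded RNA, so that an effect of the RNA treatment itself and one of dH1 depletion cannot be told apart. Each condition had 2 replicates, described as independent, and each of the 4 ChIP libraries was called against its own input of total chromatin. The 4 lists held between 3037 and 3925 peaks. Read depth, the knockdown of dH1 and the identity of the cells cannot be read from peak lists. WT replicate 1 stood apart from the other libraries, as described below, and results are also given without it where it matters.

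H2Av is the histone variant that in flies does the work of both H2A.X and H2A.Z of mammals. Its C-terminal serine is phosphorylated by checkpoint kinases around DNA breaks, and the modified form, γH2Av, spreads from a break into neighbouring nucleosomes. A peak marks enrichment of the modified histone over input and need not mark a break. dH1, the somatic linker histone of Drosophila, binds nucleosomes where DNA enters and leaves them and compacts the fibre. The interior of an arm is mostly euchromatin, the gene-rich and less repeated part of the genome, while the pericentromeric end and the telomere hold more repeats.

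The density of regions along the arm was very uneven. There were 33.1 regions per Mb on average, and the 19 bins of 1 Mb held between 6 and 64 regions with a median of 29. The highest bin thus had 10.7 times as many regions as the lowest. The bins from 10 to 11 Mb (64 regions), 8 to 9 Mb (61) and 19 to 20 Mb (54) were the densest and together held 179 regions, or 28.5% of all. The bin from 14 to 15 Mb held 6 regions, and those from 15 to 16 Mb and from 17 to 18 Mb held 15 each. The variance of the bin counts was 7.72 times their mean. There were 381 regions on the distal side of the midpoint at 11.5 Mb and 248 on the proximal side.

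**Figure D1:**
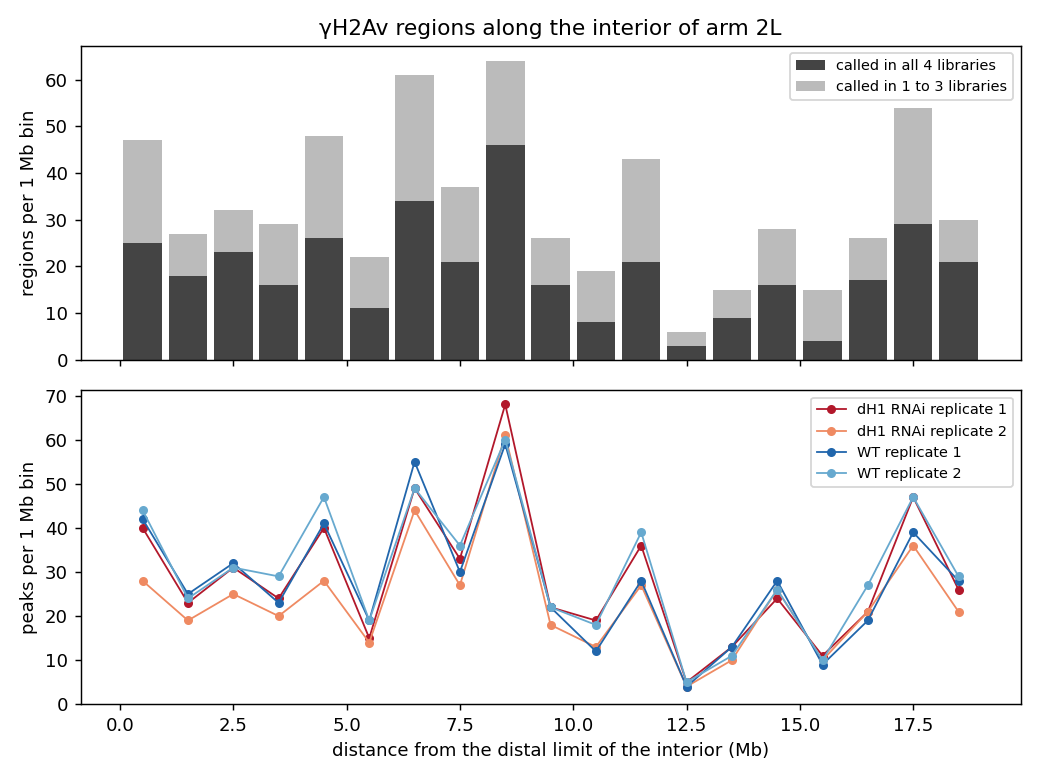
Regions (upper panel) and peaks of each library (lower panel) in bins of 1 Mb, by distance in Mb from the distal limit of the interior, which lies at 2 Mb of arm 2L. Bars are stacked by whether a region was called in all 4 libraries or in 1 to 3, and the 4 library profiles follow one another, with a peak of 64 regions in the bin from 10 to 11 Mb and a low of 6 in the bin from 14 to 15 Mb.

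The same bins were dense and sparse in every library. The densest bin held 68 and 61 peaks in the dH1 RNAi libraries, against 59 and 60 in the WT libraries, replicate 1 first. In the emptiest bin there were 5 and 4 peaks in dH1 RNAi, against 4 and 5 in WT. Across the 19 bins, Spearman's rho between pairs of libraries was 0.952 to 0.984, given as a description since bins are not replicates and all libraries come from one cell line. Taking each library's own 2L interior peaks as the whole, 3 bins had a higher share in both dH1 RNAi libraries than in both WT libraries and 4 had a lower one. Over all 97 whole bins of the interiors of 5 large arms, 20.6% were higher and 27.8% lower by the same rule, so that 2L was near the background. The bin from 10 to 11 Mb was among those with a higher share, with 12.4 and 13.5% in dH1 RNAi and 11.2 and 10.5% in WT.

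Regions came in clusters that were separated by long empty stretches. The distance between neighbours had a median of 4.18 kb and a mean of 26.7 kb. Of the 628 gaps, 408 (65.0%) were at most 10 kb long and took up 5.50% of the interior. At the other end, 51 gaps of over 100 kb took up 9.60 Mb, or 50.5% of it. The longest was 458 kb (2L:16910692-17368236), followed by 440 kb (2L:14363607-14803755) and 368 kb (2L:15772942-16141352). The next were 328 kb (2L:4466302-4794290) and 317 kb (2L:17502571-17819765). Of these 5 gaps, 4 thus lay beyond 14 Mb, and none of the 4 libraries had a peak in any of them.

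Joining regions at most 10 kb apart gave 221 clusters, of which 98 were single regions and 41 held 5 regions or more. Those 41 clusters contained 321 regions (51.0%). Of the regions in them, 209 (65.1%) were called in all 4 libraries, against 40 of the 98 single regions (40.8%), a difference that was not tested because neighbouring regions are not independent.

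The cluster with the most regions held 37 within 261 kb (2L:10197422-10458272), of which 29 were called in all 4 libraries. It was covered by regions over 73.8% of its length. The dH1 RNAi libraries had 40 and 41 peaks in it, against 35 and 35 in the WT libraries, while the covered length was 165 and 169 kb in dH1 RNAi and 162 and 171 kb in WT. The covered length thus overlapped between conditions, and so did the number of regions called in the cluster. Peak numbers also count regions split into more than 1 peak. Such splits were more frequent in dH1 RNAi over the whole series (6.07 and 7.72% of called regions, against 3.73 and 3.56% in WT). The share of all clusters whose peak numbers separate was not determined, so no difference between conditions is read from this cluster. Its peaks were strong within their lists, with a median percentile of 84.8 and 72.8 in dH1 RNAi and of 87.3 and 63.9 in WT, where 0 is the weakest and 100 the strongest peak of a list by the score of the caller. The next largest clusters held 17 regions (2L:9887119-9967674) and 16 regions (2L:19481571-19588610), and 2 clusters held 11 (2L:13158503-13236945 and 2L:13768122-13842625). In each of these next clusters the numbers of peaks overlapped between conditions.

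**Figure D2:**
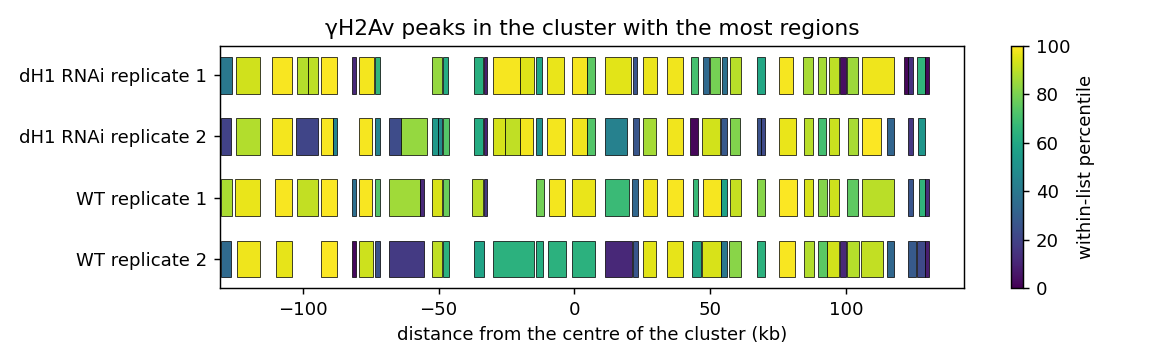
Peaks of the 4 libraries in the cluster of 37 regions, by distance in kb from its centre, with the colour giving the percentile of each peak in its own list. Each library covers most of the 261 kb, WT replicate 1 has a stretch with no peak to the left of the centre, and WT replicate 2 has weaker peaks near the centre than the dH1 RNAi libraries.

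A stretch of that cluster differed sharply between the libraries. The region 2L:10297856-10312944, 15089 bp wide, ranked 57 and 55 in the dH1 RNAi lists, where 1 is the strongest peak. In WT it ranked 1414 in replicate 2 and had no peak in WT replicate 1. Nearby, 2L:10259674-10273715 had no peak in dH1 RNAi replicate 1, ranked 486 in dH1 RNAi replicate 2, and ranked 531 and 3255 in WT replicates 1 and 2. Calls and ranks thus varied between replicates of one condition even where neighbouring regions were among the strongest of the arm.

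The interiors of 3L and 3R were set beside that of 2L in each library. There were 27.6 ± 2.74 peaks per Mb on 2L and 25.9 ± 3.25 on 3L (SD, n = 4 libraries), and 2L was denser in 4 of 4 libraries by 1.73 peaks per Mb on average. Peaks on 2L were also wider than those on 3L, by 53.6 bp in the median, and higher in their lists, by 3.54 percentile points, in 4 of 4 libraries each. Against 3R, peaks on 2L were narrower and lower in 4 of 4 libraries, with mean differences of -140 bp and -3.95 percentile points. The difference in density from 3R was -2.25 peaks per Mb, with WT replicate 1 as the exception to its sign. The exact sign-flip test gave p = 0.125 for each of these comparisons, the smallest it allows with 4 libraries, and 0.250 for the density against 3R, and after Benjamini-Hochberg adjustment over the 6 tests all were at 0.15 or 0.25. No difference from these arms passed 0.05.

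Clustering was described in the same way on these arms. The cluster with the most regions had 37 on 2L, 17 on 3L and 14 on 3R. Clusters of 5 regions or more held 51.0% of regions on 2L, 37.1% on 3L and 43.3% on 3R. The median gap was 4.18 kb on 2L, 5.56 kb on 3L and 5.18 kb on 3R, and gaps of over 100 kb took up 50.5, 47.1 and 47.4% of the interiors. These are single values per arm, so that no test was made.

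Whether dH1 depletion changed the number of peaks on the arm was addressed library by library. The dH1 RNAi libraries had 547 and 452 peaks on the 2L interior, against 528 and 573 in the WT libraries. The ranges overlapped, with means of 499.5 ± 67.2 peaks in dH1 RNAi and 550.5 ± 31.8 in WT (SD, n = 2). The difference was -51 peaks, less than the SD of dH1 RNAi (two-sided exact permutation p = 0.667). It was -3.50 without dH1 RNAi replicate 2, the shortest list, and 5 peaks when each list was reduced to its 3037 strongest peaks. With 2 libraries against 2, the smallest p of this test is 0.333, so that no difference between conditions could pass 0.05.

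The interior of 2L took a similar part of every list. Its share was 14.7% (95% Wilson interval 13.6 to 15.8%) and 14.9% (13.7 to 16.2%) in the dH1 RNAi lists. In WT it was 14.0% (13.0 to 15.2%) and 14.6% (13.5 to 15.7%). These intervals cover counting error only and all overlap. The difference of 0.449 percentage points (exact permutation p = 0.333) was 0.169 without WT replicate 1, 0.729 without WT replicate 2 and 0.165 when all lists had the same size. It became -0.0642 when peaks on U, Uextra and the sequences ending in Het were left out. There were 172 and 137 such peaks in the dH1 RNAi lists, against 457 and 129 in the WT lists.

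The length covered by peaks was lower in both dH1 RNAi libraries. They covered 1595 and 1320 kb of the interior, against 1672 and 1756 kb in the WT libraries. The means were 1458 ± 194 kb in dH1 RNAi and 1714 ± 59.3 kb in WT (SD, n = 2), and the difference of -256 kb (exact permutation p = 0.333) was -119 kb without dH1 RNAi replicate 2 and -123 kb at equal list size. Its size thus depended on the shortest list.

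Peaks were also narrower in dH1 RNAi. The median width was 2378 and 2387 bp in the dH1 RNAi libraries and 2524.5 and 2485 bp in the WT libraries. The replicates lay close together and the conditions did not overlap, with means of 2382.5 ± 6.36 bp in dH1 RNAi and 2505 ± 27.9 bp in WT (SD, n = 2). The difference of -122 bp exceeded the SD of either condition (exact permutation p = 0.333, the smallest possible) and was -142 to -102.5 bp when 1 library was left out. It was -298 bp at equal list size. Peaks were narrower in both dH1 RNAi libraries on the neighbouring arms too, with 2346 and 2347.5 bp in dH1 RNAi and 2482.5 and 2384 bp in WT on 3L. On 3R the medians were 2543.5 and 2453.5 bp in dH1 RNAi and 2659 and 2680 bp in WT.

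**Figure D3:**
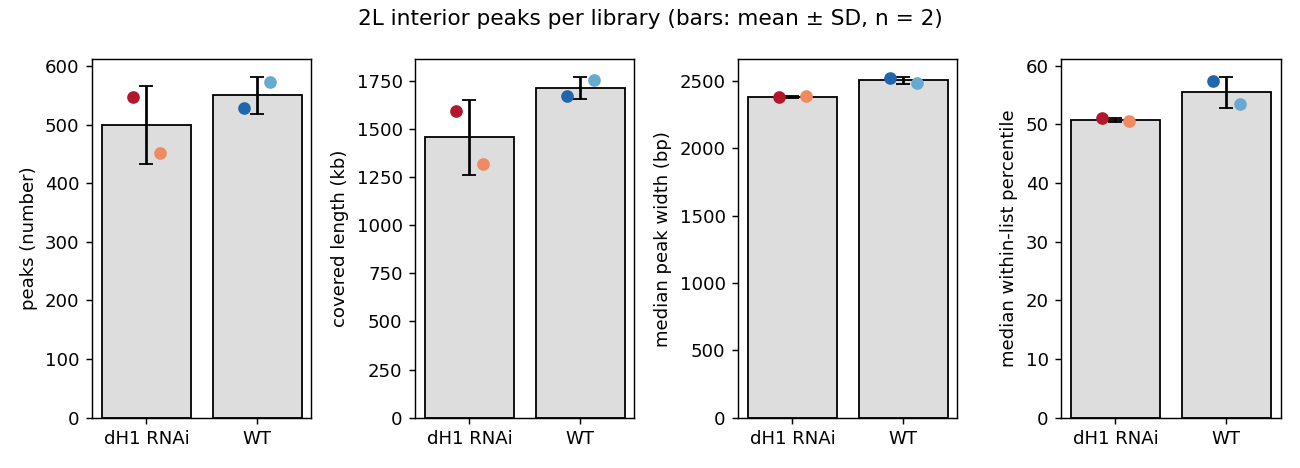
Number of peaks, covered length in kb, median peak width in bp and median within-list percentile on the 2L interior. Bars are means with SD (n = 2) and points are libraries, and the median width of the dH1 RNAi libraries (2378 and 2387 bp) lies below that of the WT libraries (2524.5 and 2485 bp), whereas the numbers of peaks overlap.

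Regions were split into more than 1 peak more often in dH1 RNAi. Of the regions called, 38 of 509 (7.47%) and 37 of 411 (9.002%) held more than 1 peak in the dH1 RNAi libraries, against 21 of 503 (4.17%) and 25 of 547 (4.57%) in the WT libraries. The means were 8.23 ± 1.09% in dH1 RNAi and 4.37 ± 0.280% in WT (SD, n = 2, exact permutation p = 0.333). This comparison was chosen after the values were seen, and it was not particular to 2L, since the shares over the whole series were 6.07 and 7.72% in dH1 RNAi and 3.73 and 3.56% in WT.

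Merged regions had a median width of 2648 bp, between 940 and 17858 bp, and covered 11.3% of the interior. There were 114 regions of 5 kb or more (18.1%), and these made up 38.3% of the covered length. The widest, 2L:16324295-16342152, was 17858 bp and ranked 92 and 964 in dH1 RNAi and 422 and 57 in WT. It was followed by the pair from the largest cluster described above and by 2L:12037096-12051135 (14040 bp) and 2L:19481571-19494429 (12859 bp). The first of these was called in both WT libraries and in neither dH1 RNAi library, but low in both WT lists, at percentiles 39.0 and 9.12, and a dH1 RNAi peak lay 2864 bp away. The second ranked 139 and 1354 in dH1 RNAi and 1242 in WT replicate 2, and had no peak in WT replicate 1. Of the 5 widest regions, 1 was thus called in all 4 libraries, as were 7 of the 11 of 10 kb or more and 74 of the 114 of 5 kb or more (64.9%). Of all 629 regions, 57.9% were called in all 4, and 49.0% of those of the series. Joining peaks of more libraries can only widen a merged region, so width and number of calls are linked by construction. Width and percentile of peaks rose together in each library, with Spearman's rho of 0.724 and 0.695 in dH1 RNAi and 0.642 and 0.731 in WT, across peaks that share a library.

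Of the 629 regions, 364 (57.9%, 95% Wilson interval 54.0 to 61.7%) were called in all 4 libraries. Over all 4731 regions of the series the percentage was 49.0, and on the interiors of 3L and 3R it was 54.9 and 61.2%. Another 92 regions were called in 3 libraries (14.6%, series 15.0%), 65 in 2 (10.3%, series 12.7%) and 108 in 1 (17.2%, series 23.3%). Regions called in both replicates numbered 400 in dH1 RNAi (63.6%, series 56.4%) and 439 in WT (69.8%, series 61.4%), and the 364 common ones were 91.0% and 82.9% of them.

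The mean overlap of peaks was the same within and between conditions. The shared length was somewhat larger within conditions in the mean, but not pair by pair. On the 2L interior the dH1 RNAi replicates overlapped by 87.4% and the WT replicates by 84.2%, as the mean share of peaks that met a peak of the other list. Between conditions the range was 83.2 to 90.1%, and dH1 RNAi replicate 1 and WT replicate 2 had the closest lists. The mean was 85.8% both within and between conditions (difference -0.0357 points, exact permutation over 3 splits, p = 0.667). Without 1 library the difference was -4.01 points (without dH1 RNAi replicate 2) to 2.55 points (without WT replicate 2), and it was positive without replicate 1 of dH1 RNAi (0.812) or of WT (0.505). Of the length covered by either of 2 libraries, 71.0% was covered by both within conditions and 68.7% between conditions, a difference of 2.26 points (exact permutation over 3 splits, p = 0.333, the smallest possible). The dH1 RNAi replicates shared 73.8% and the WT replicates 68.1%, within the range of 63.2 to 76.8% between conditions. The pair with the highest value was dH1 RNAi replicate 1 and WT replicate 2, and the lowest value involved dH1 RNAi replicate 2, the shortest list.

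Peak edges were placed closely in all libraries. Among the 302 regions with exactly 1 peak in each library, the edges of 2 libraries differed by a median of 59.5 to 100.5 bp. The median shift was 66 bp between the dH1 RNAi replicates and 59.5 bp between the WT replicates, and 67 to 100.5 bp across conditions. The means were 62.8 bp within and 82.6 bp between conditions (exact permutation over 3 splits, p = 0.333, the smallest possible).

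Regions missing from a single library were mostly missing from dH1 RNAi replicate 2, as in the whole series. There were 54 of these (8.59%, against 8.10% of all regions) and 4 missing from dH1 RNAi replicate 1 (0.636 against 0.613%). Another 24 were missing from WT replicate 1 (3.82 against 4.44%) and 10 from WT replicate 2 (1.59 against 1.86%). The 54 were weak where called, with a median percentile of 17.6 in dH1 RNAi replicate 1 and of 28.2 and 25.4 in the WT libraries. Those missing from WT replicate 1 alone were stronger, at 44.1 and 32.9 in dH1 RNAi and 51.2 in WT replicate 2. Regions called in all 4 libraries had median percentiles of 63.7 and 53.5 in dH1 RNAi and of 67.4 and 66.7 in WT.

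WT replicate 1 held a group of regions that no other library shared. It alone called 44 regions, or 7.00%, less than the 11.0% of all regions of the series. Their median width was 3992 bp, and 15 of them stood above percentile 50 of its list. WT replicate 2 alone called 7.63% of the regions (series 8.41%), and the dH1 RNAi libraries alone 1.75 and 0.795% (series 2.75 and 1.12%). The 48 regions called in WT replicate 2 alone had a median width of 1636 bp and reached at most percentile 37.8, and those of a single dH1 RNAi library (11 and 5) at most 38.0 and 18.5. Of regions of 5 kb or more, 21 were called in WT replicate 1 alone and 1 in dH1 RNAi replicate 2 alone, with 0 for the remaining libraries. The strongest of the 44, 2L:2293943-2299494 (5552 bp), ranked 54 of 3761 peaks, yet the nearest peak of another library was 55851 bp away. It was followed by 2L:11563515-11569151 and 2L:8596079-8602049, which ranked 401 and 455 and lay 45436 and 58766 bp from any peak of another library. These 3 were picked after their values were seen. Of the 44 regions, 3 lay within 1 kb of a peak of another library, against 20 of the 48 of WT replicate 2. The list of WT replicate 1 also had the most peaks on U, Uextra and Het sequences (457), and reads with several alignment sites were kept. The part of such reads in the 44 regions was not tested.

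Few regions were called by both libraries of a condition while the other condition had no call. There were 2 dH1-only regions (0.318%, 95% Wilson interval 0.0872 to 1.15%), where 1.06% of all regions of the series were dH1-only. There were 17 WT-only regions (2.70%, 1.69 to 4.29%), against 3.64% of all regions. Both shares of the series lay within the intervals, which cover counting error only and treat regions as independent, so that they are no test. Of the 6 labelings, 4 gave a difference of at least 15 in size (exact permutation p = 0.667). With 1 library left out the definition asks for fewer calls, and 9 regions were dH1-only and 71 WT-only without dH1 RNAi replicate 1, and 15 and 21 without dH1 RNAi replicate 2. Without WT replicate 1 there were 12 and 69, and without WT replicate 2 there were 27 and 62. At equal list size the counts were 5 and 9.

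The dH1-only region 2L:9776624-9780271 (3648 bp) stood at percentile 59.8 and 27.0 of the dH1 RNAi lists, and the nearest WT peak was 9264 bp away. The other, 2L:8110654-8112102 (1449 bp), stood at 2.25 and 20.03, with a WT peak 890 bp away. Both were thus in the middle or the weak part of their lists.

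WT-only regions were mostly narrow, weak and close to dH1 RNAi peaks. Their median width was 1793 bp and their median percentile 18.8 in WT replicate 1 and 10.2 in WT replicate 2, and 15 of the 17 were below percentile 50 in both. A dH1 RNAi peak lay within 10 kb of 14 of them and within 1 kb of 5. Ordered by the weaker of their 2 WT ranks, the first 5 were 2L:7884637-7887011 (percentiles 50.7 and 39.0 in WT), 2L:6479480-6481536 (28.3 and 33.8), 2L:6123896-6125907 (18.8 and 24.4), 2L:2228844-2231695 (35.0 and 18.9) and 2L:20639732-20641630 (13.2 and 25.8). The region 2L:8936394-8939427 stood higher in WT replicate 1 (54.0) but at 10.5 in WT replicate 2. The first of the 5 was a single region, with the nearest dH1 RNAi peak 111561 bp away, and the last lay 116 bp from one. When merging reached over 1000 bp, 3 of these 5 still had both WT libraries alone as callers, and with lists of equal size 2 did.

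Among the regions of all 4 libraries, the 5 whose lowest rank in any list was best are named. Peaks with equal scores share the better rank, and at the top of the lists a score of 3100 was tied in 9 and 2 peaks of dH1 RNAi and 14 and 29 of WT. The region 2L:16726881-16733725 ranked 2 and 6 in the dH1 RNAi lists and 23 and 8 in the WT lists. 2L:10234494-10240572, in the largest cluster, ranked 18 and 27 in dH1 RNAi and 19 and 8 in WT. 2L:16301680-16308523 ranked 13 and 43 in dH1 RNAi and 5 and 38 in WT. These were followed by 2L:10402940-10409562, also in the largest cluster, and 2L:8397855-8404685, whose worst ranks were 105 and 117. Some regions stood as high in single lists without a call in every library, such as 2L:10297856-10312944 and the region 2L:2293943-2299494 of WT replicate 1. The 5 named regions were 6079 to 6845 bp wide, more than the median region.

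Peaks of the 2L interior stood lower in the dH1 RNAi lists than in the WT lists. The median percentile over all peaks was 51.0 and 50.6 in dH1 RNAi and 57.3 and 53.5 in WT, with means of 50.8 ± 0.343 in dH1 RNAi and 55.4 ± 2.71 in WT (SD, n = 2). The difference of -4.63 points (exact permutation p = 0.333) ranged between -6.54 and -2.71 when 1 library was left out, the smaller value being without WT replicate 1. It was -2.73 with lists of equal size, -7.24 for scores of at least 100, and -3.64 when peaks on U, Uextra and the sequences ending in Het were left out of the ranking. On 3L the medians were 47.6 and 48.5 in dH1 RNAi and 53.5 and 48.7 in WT, and on 3R they were 57.3 and 54.7 in dH1 RNAi and 57.7 and 58.5 in WT, so that dH1 RNAi was lower there too.

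The same regions were followed across libraries through the 364 that all 4 called. Spearman's rho of their percentiles was 0.817 between the dH1 RNAi replicates and 0.651 between the WT replicates. Between conditions it was 0.696 to 0.777, so that the WT replicates were the least alike pair. In 121 of the 364 regions (33.2%, 95% Wilson interval 28.6 to 38.2%) both dH1 RNAi percentiles were below both WT percentiles, against 24.6% of the 2320 such regions of the series. In 29 (7.97%, 5.6 to 11.2%) both were above, against 9.18% of the series. These intervals cover counting error only and treat regions as independent, which neighbours are not. The lower share was above that of the series, and above the 23.0% of the series outside the 2L interior. However, 3L had the same share (33.2%), while 3R had 17.8%. The difference between the counts was -92 regions, and of the 6 labelings only the mirror image was as far from 0 (exact permutation p = 0.333, the smallest possible). The count of lower regions was 96 when ranks were taken among regions of all 4 libraries alone, a setting added later, and 44 were then higher. Percentiles depend on how many weak peaks a list holds. The median of these regions was 53.5 in dH1 RNAi replicate 2, the shortest list, and 63.7 in dH1 RNAi replicate 1. At equal list size 79 were lower and 39 higher. With 1 library left out fewer comparisons have to hold, and 212 were lower and 44 higher without dH1 RNAi replicate 1, and 166 and 75 without dH1 RNAi replicate 2. There were 231 and 77 without WT replicate 1 and 199 and 99 without WT replicate 2.

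**Figure D4:**
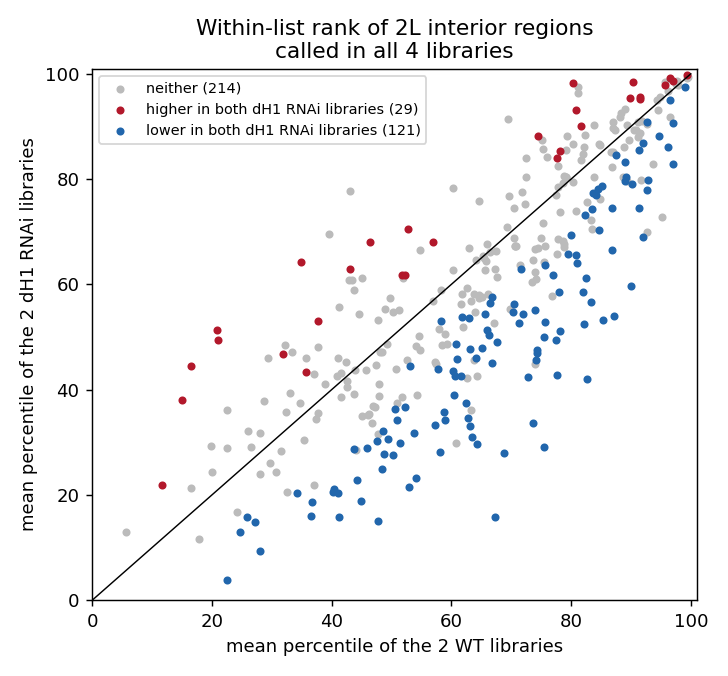
Mean percentile in the 2 dH1 RNAi lists (vertical) against that in the 2 WT lists (horizontal) for the 364 regions called in all 4 libraries, with the line of equal rank. Of the regions, 121 were lower and 29 higher in both dH1 RNAi libraries than in both WT libraries, and the lower ones had median percentiles of 53.7 and 44.0 in dH1 RNAi and 73.1 and 66.0 in WT.

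The largest falls in rank were in regions of the upper part of the WT lists. At 2L:6655738-6659336 the percentiles were 34.7 and 23.6 in dH1 RNAi and 80.4 and 70.6 in WT, so that the nearest libraries of the conditions were 35.9 points apart. At 2L:6965216-6969555 they were 46.0 and 38.1 in dH1 RNAi and 86.4 and 78.8 in WT. At 2L:12171621-12175848 they were 29.8 and 1.65 in dH1 RNAi and 73.5 and 60.9 in WT. 2L:2883945-2886851 and 2L:6948011-6951410 followed, 22.5 and 20.3 points apart. Of these 5 regions, 3 lay between 6 and 7 Mb.

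The largest gain was smaller than the largest fall, but above the falls of 22.5 and 20.3 points. The gains came from 29 regions and the falls from 121. At 2L:13903397-13906816, a single region, the percentiles were 48.0 and 54.5 in dH1 RNAi and 20.1 and 21.7 in WT, 26.4 points apart at the nearest. At 2L:19556137-19558247 they were 41.8 and 47.1 in dH1 RNAi and 30.0 and 3.01 in WT. The conditions were 11.5, 10.8 and 9.69 points apart at 2L:18157350-18160134, 2L:10009037-10011179 and 2L:13777391-13786850. All 5 lay beyond 10 Mb, and at equal list size 3 of them lacked a call in 1 library.

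The share of lower regions differed along the arm, although both stretches held many of them. Between 2 and 8 Mb, 62 of 119 regions of all 4 libraries (52.1%) were lower in both dH1 RNAi libraries and 1 was higher. Between 8 and 21 Mb, 59 of 245 (24.1%) were lower and 28 (11.4%) were higher. Over the 2320 such regions of the series 24.6% were lower and 9.18% higher, so that the stretch from 8 to 21 Mb was near the series. In single bins the lower share was 39.1 to 90.9% in each of the first 6, and the highest value, in the bin from 7 to 8 Mb, came from 10 of 11 regions. The bin from 20 to 21 Mb was also high, with 12 of 21 regions (57.1%), whereas the highest bin between 8 and 20 Mb had 31.0%. Of the 17 WT-only regions, 11 were among the 205 regions between 2 and 8 Mb and 6 among the 424 between 8 and 21 Mb. Over the whole series 3.64% of regions were WT-only.

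The limit at 8 Mb was set after the values by bin were seen, so that no test was made. The median percentile of these regions was 56.7 and 43.9 in dH1 RNAi and 61.9 and 61.6 in WT between 2 and 8 Mb. Between 8 and 21 Mb it was 67.3 and 58.8 in dH1 RNAi and 71.1 and 69.8 in WT. Distal regions were thus weaker in all 4 lists, and the mean of dH1 RNAi minus WT per region had a median of -10.02 points there, against -2.83 further along. Over the 2320 regions of all 4 libraries in the whole series this median was -2.71 points. The distal stretch held 31.6 and 29.6% of the 2L interior peaks of the dH1 RNAi libraries and 34.5 and 33.9% of those of the WT libraries. Regions called in all 4 libraries were also narrower there, with a median width of 2639 bp against 3685 bp, and the part of width and strength in the pattern was not tested. The difference in lower shares, 28.0 points, was 16.8 points without WT replicate 2, and lay between 24.6 and 29.8 points in the other alternatives run.

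**Figure D5:**
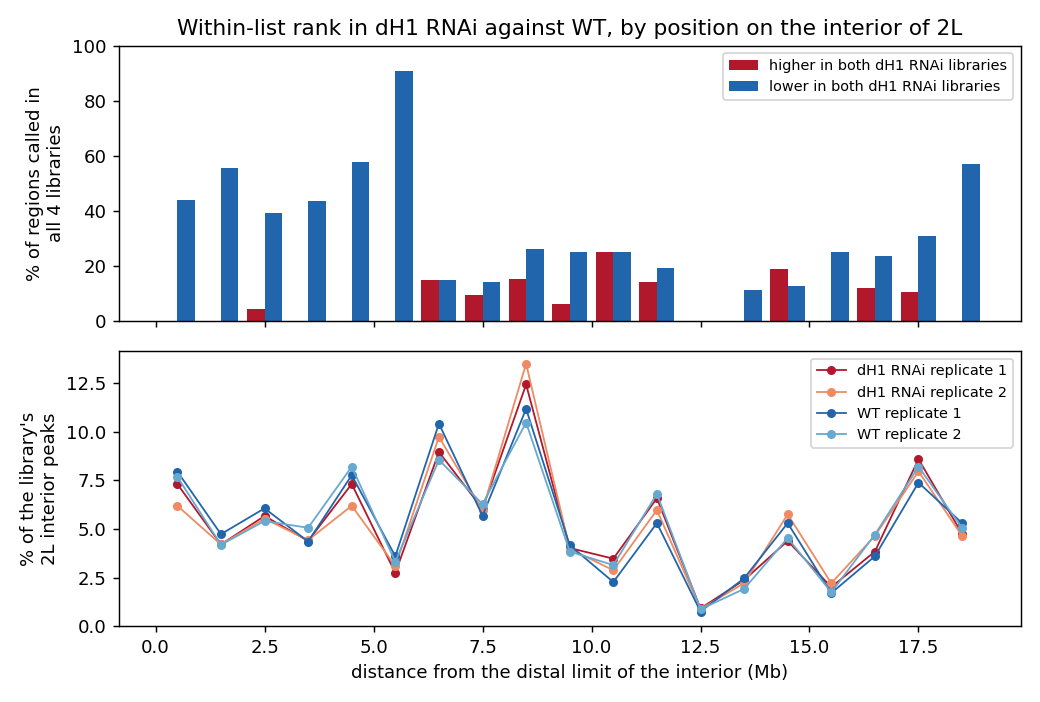
Percentage of regions called in all 4 libraries that were higher or lower in both dH1 RNAi libraries (upper panel) and share of each library's 2L interior peaks (lower panel), in bins of 1 Mb, by distance in Mb from the distal limit of the interior. The first 6 bins have lower shares of 39.1 to 90.9%, and regions with a higher rank lie almost all further along the arm.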

How the data were processed

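γH2Av ChIP and input samples of S2 cells were grouped by the genotype and replicate in the labels. The authors aligned reads to dm3 with Bowtie 0.12.5, allowing 2 seed mismatches and keeping all alignment sites up to 10000, so that reads of repeats count at each copy. They removed duplicates with sambamba 0.5.1 and ran MACS 1.4 on every ChIP library with its own input as control, at p below 1e-05. The deposited score is −10 times the log10 of that p-value and was at least 50.01. It grows with read depth, which is unknown, so scores were used as percentiles within a list. A percentile still depends on how many weak peaks the list holds, and list sizes differed. A region's value in a library is that of its strongest peak. Of the 4 lists a second, identical copy was set aside. Coordinates are counted from 1.

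Python 3.11.15, numpy 2.4.6, scipy 1.17.1 and matplotlib 3.10.9 were used, and the code was tested on simulated lists. Libraries were compared by exact permutation tests over 6 labelings, two-sided, overlap over 3 splits, and arms by exact sign-flip tests. Interiors of other arms ended 2 Mb before their highest peak end. Named regions were the 5 best ranked dH1-only (2 existed), WT-only and common regions, the 5 with the largest rank gain and fall, the 5 widest, and the 5 longest gaps and largest clusters. The members, lists and rules were chosen with earlier results of these data known. Alternatives were a minimum score of 100, equal list size, omission of each library, a replicate block, membership by midpoint, merging up to 1000 bp, 50% overlap, other bins and cluster distances, and ranks without U, Uextra and Het sequences. The study's own differential test needs reads and was not run. Genes and sequences were not analysed here, since the annotation used would have been of another build.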

Additional observations from a re-analysis of the deposited data

How the results depend on the processing

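Over the alternatives run, 7 differences changed sign, 19 counts moved by more than 1.5 times and 4 values of the bin variance moved by more than the spread between libraries, while 117 values did none of these. The 117 include the replicate blocks, whose mean differences equal the main ones by construction. They also include membership by midpoint, which returned the main values. The difference in number of peaks became 5 at equal list size and was -98.5 to -3.50 when 1 library was left out. That in the share of the list became -0.0642 points without U, Uextra and Het sequences. Overlap within minus between conditions changed sign with a minimum score of 100 (0.181 points) and with 50% overlap (0.0329), and was -4.01 to 2.55 when 1 library was left out. At equal list size 5 regions were dH1-only and 9 WT-only, and without 1 library 9 to 27 and 21 to 71. A minimum score of 100 left 1 dH1-only region. Regions ranked higher numbered 44 when ranked among common regions and 44 to 99 without 1 library, and those ranked lower 79 at equal list size and 166 to 231 without 1 library. Leaving out a library relaxes these definitions. The variance of bin counts over their mean was 6.67 with a minimum score of 100, 5.67 in bins of 0.5 Mb, 10.0 in bins of 2 Mb and 5.70 for regions of all 4 libraries. The cause of the other changes was not tested. The mean differences in covered length, median width and median percentile and those from 3L and 3R kept their sign in each alternative run. So did that in the share of peaks distal of the midpoint (61.6 and 61.3% in dH1 RNAi, 64.2 and 61.8% in WT). With a minimum score of 100 the differences from 3L were 63.75 bp and 1.67 percentile points (exact sign-flip p = 0.375 and 0.625). The 4 libraries then no longer shared a sign in these 2 measures.

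With replicate number as a block, the mean differences were those without it (-51 peaks), and the paired differences were 19 and -121 peaks, -76.9 and -436 kb, and -146.5 and -98 bp. With 2 pairs the sign-flip test cannot go below 0.5, so that no call was possible under the block. The deviations of libraries that share a number correlated at -0.144 in calls and -0.0514 in percentiles, and with the numbers crossed, a pairing added later, the test again cannot go below 0.5. The number of peaks per list limits precision, and read depth behind each call is unknown.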
